A study of Mus musculus with 91 samples.

Results

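The genes described here are 36 that encode proteins of nucleolar ribosome biogenesis, chosen by name from the 23956 gene symbols in the table of single-cell expression values. All 36 had a row in the table. The values came from 91 bone marrow cells of C57BL/6 mice with the genotype Gfi1-R412X/- Irf8+/-, that is, an allele of the repressor gene Gfi1 named R412X over a minus allele, together with heterozygosity for Irf8, a transcription factor gene of the monocyte and dendritic lineages. All cells carried this genotype, and no treatment, time, age or number of animals was given in the labels. Sorted cells carried CD117, CD34 and high CD16/32 but neither lineage markers nor Sca-1, and came as 46 cells named GMP (granulocyte-monocyte progenitors) and 45 named CD11b+ GMP-P (CD11b being an integrin subunit, the product of Itgam). The series title names a neutropenia-associated mutation of Gfi1 and the cell states of granulocyte specification. With no wild-type cells analysed here and no animal named, each population was 1 sample, and no test between them was possible.

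Ribosomes are built in the nucleolus, where RNA polymerase I transcribes the ribosomal DNA. Small nucleolar ribonucleoproteins (snoRNPs) guide 2′-O-methylation (box C/D) and pseudouridylation (box H/ACA) of the precursor RNA, and separate sets of assembly factors then shape the small and the large subunit. The transcription factor Myc is known to raise the transcription of many of these genes in growing cells, and growth of this kind is high in myeloid progenitors and low in late granulocyte precursors.

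The canonical binding sequence of Myc with its partner Max is CACGTG, a palindrome that reads the same on both strands. RefSeq promoter windows (GRCm38.p6), which run from 250 bases before to 50 bases after a transcription start, were at hand for 30 of the 36 genes. There were none for Bop1, Fbl, Gnl2, Npm1, Rrp12 and Rrs1. The sequence occurred in the windows of 7 of the 30 genes (23.3%), against 8.09% of 27025 genes with a window and 8.91% of 17492 protein-coding genes. In 5 of the 7 it lay in the 50 bases after the start, where 1.28% of all genes and 1.32% of protein-coding genes held it, a window added after the values were seen. In the 250 bases before the start it occurred in 2 of the 30 genes (6.67%), against 6.86% of all genes. The stretches of 30 bases that hold it are shown because they are what these genes share with a Myc site, 5′ to 3′ on the gene's strand with CACGTG in capitals.
Imp4: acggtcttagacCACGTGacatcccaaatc
Nop2: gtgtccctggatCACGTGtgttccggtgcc
Ltv1: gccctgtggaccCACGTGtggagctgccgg
Pes1: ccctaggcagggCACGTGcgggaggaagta
Mybbp1a: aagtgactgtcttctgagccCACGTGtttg
Tsr1: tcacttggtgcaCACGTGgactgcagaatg
Wdr43: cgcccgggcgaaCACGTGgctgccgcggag

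These stretches lie at chr1:34439696-34439725 (plus strand) for Imp4 and chr6:125131811-125131840 (plus) for Nop2, where CACGTG begins 121 and 60 bases before the start. The other 5 are at chr10:13193092-13193121 (minus) for Ltv1, chr11:3963965-3963994 (plus) for Pes1, chr11:72441347-72441376 (plus) for Mybbp1a, chr11:74898092-74898121 (plus) for Tsr1 and chr17:71616220-71616249 (plus) for Wdr43. In them CACGTG begins at base 29, 3, 41, 25 and 18 of the transcript. The match is a property of the letters only, and no binding was measured. The 7 genes with the sequence differed between the populations by a median of -2.48 (range -3.38 to -1.17), and the 23 with a window but without it by -2.71 (range -4.14 to -0.47), so the differences of both sets covered much the same range.

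Levels are log2(TPM + 1), where TPM scales a gene's transcripts by length and by the cell's total, and every difference is the mean over CD11b+ GMP-P cells minus the mean over GMP cells, with SDs over cells. A difference of 1 or more was called. The nucleolar genes were lower in CD11b+ GMP-P as a set: 32 of 36 (88.9%) were lower by 1 or more and none was higher. Among the 10030 genes that passed a filter of 10% of cells above 0 in one population or the other, 29.9% were lower by that size and 2.45% higher. Among the 5133 genes past the same filter set at 50%, here called commonly detected, 51.8% were lower and 3.7% higher. The median difference of the nucleolar genes was -2.51, against -0.50 over the 10030 genes and -1.05 over the commonly detected ones, which leaves -1.46 relative to the latter. Scaling by median of ratios moved the median of the commonly detected genes to -0.64, with 2041 of the 10030 genes lower and 437 higher in place of 3002 and 246, and 29 of the nucleolar genes were still lower by 1 or more. No test stands behind these counts, since the cells of a population are not replicates of it.

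The spread over cells was wide, and the ranges of the populations overlapped for all 36 genes. In each cell the levels of the 36 genes were averaged. This mean level lay between 1.50 and 6.17 in GMP, with a median of 4.90, and between 0.10 and 5.79 in CD11b+ GMP-P, with a median of 1.86. The means were 4.70 ± 0.96 (n = 46 cells) and 2.33 ± 1.56 (n = 45), a difference of -2.37. Of the CD11b+ GMP-P cells, 42 lay below the GMP median and 18 below the lowest GMP cell, while 4 GMP cells lay above every CD11b+ GMP-P cell. A GMP cell had between 11 and 35 of the 36 genes above 0 (median 30), and a CD11b+ GMP-P cell between 8 and 33 (median 18). At 10 TPM or more the medians were 23 and 9 genes.

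**Figure D1:**
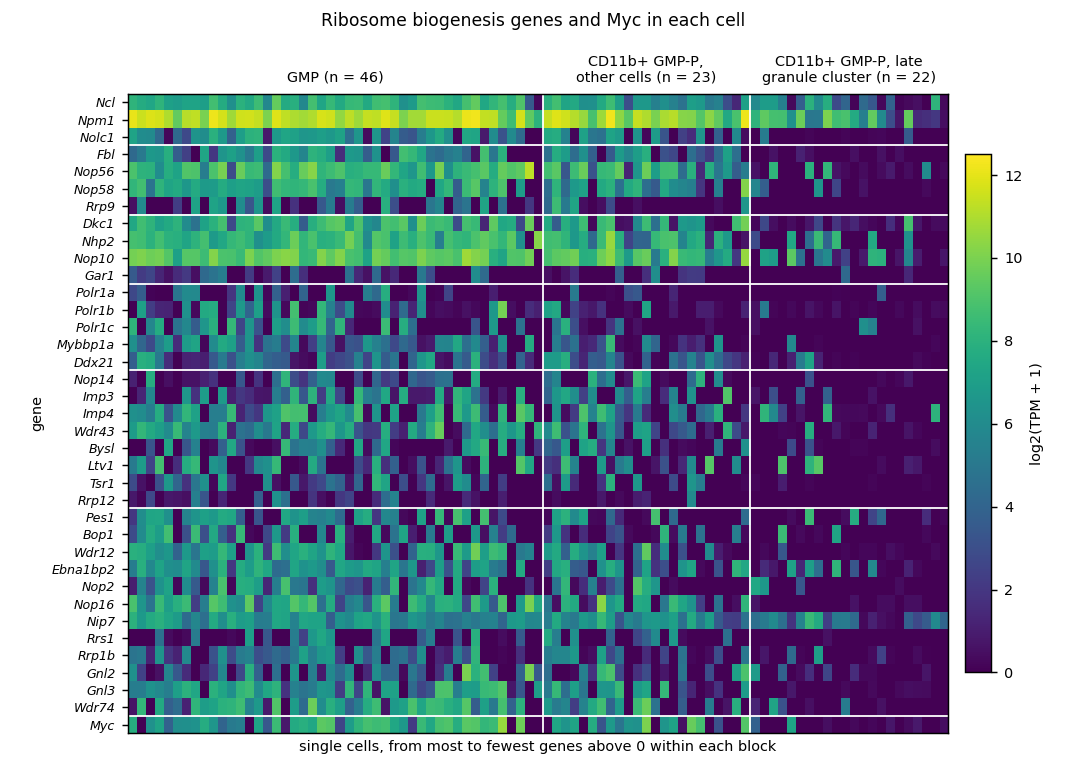
Level of each of the 36 genes (rows, grouped by role) and Myc (last row) in each cell (columns), as log2(TPM + 1) from dark (0) to yellow, with 46 GMP cells on the left, then 23 CD11b+ GMP-P cells, then the 22 CD11b+ GMP-P cells of a cluster led by late granule genes. Npm1 is the brightest row, and most other rows go dark in the right block.

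The number of genes detected moved with this result. GMP cells had a median of 5461 genes above 0 (2796 to 6383). In CD11b+ GMP-P the median was 4147 (2435 to 6161). The 50 highest genes of a cell held a median of 26.9% and 51.2% of its TPM. Read depth per cell is unknown from TPM. Among the 26 GMP and 21 CD11b+ GMP-P cells with between 3947 and 5645 genes, the range that both populations share, the mean level differed by -1.62 (4.73 ± 0.86 and 3.11 ± 1.18), and 27 of the 36 genes (75%) were lower by 1 or more against 16.7% of the 10030 genes. In that range the median was -1.75 for the nucleolar genes and -0.44 for the commonly detected ones. After each cell's TPM was rescaled without its 50 highest genes, 34 nucleolar genes were lower by 1 or more, against 27.5% of the 10030 genes. The median was then -2.40 for the nucleolar genes and -0.90 for the commonly detected ones. The part of detection in the rest of the difference was not tested.

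The nucleolar genes were also lower relative to the ribosomal protein transcripts of the same cell, a ratio in which abundant granule transcripts cancel. Together they made up a median of 0.689% of a GMP cell's TPM (0.211% to 1.25%) and 0.172% of a CD11b+ GMP-P cell's (0.000302% to 1.14%). The 79 cytoplasmic ribosomal protein genes made up 18.1% and 9.08%. As a share of the ribosomal protein TPM, the nucleolar genes came to a median of 3.94% in GMP (1.24% to 7.19%) and 1.90% in CD11b+ GMP-P (0.00881% to 5.77%). Npm1 alone held a median of 36.9% and 38.9% of the nucleolar total. Without it the shares were 2.44% and 1.24%, and the ranges overlapped with and without it.

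Ncl, Npm1 and Nolc1 encode abundant nucleolar phosphoproteins: nucleolin, which binds precursor rRNA, nucleophosmin, a histone and ribosome chaperone, and NOPP140, a partner of the snoRNPs. All 3 were lower in CD11b+ GMP-P. Npm1, the highest of the 36 genes, lay between 8.03 and 12.21 in GMP (median 11.32) and between 0.44 and 12.23 in CD11b+ GMP-P (median 9.41), and its means of 11.05 ± 0.92 and 8.37 ± 3.25 differed by -2.69. It was above 0 in every cell, and the lower mean came with a long tail of low CD11b+ GMP-P cells while the highest cells of both populations were level. Ncl lay between 0.26 and 9.56 in GMP (median 7.83) and between 0 and 8.73 in CD11b+ GMP-P (median 5.49), a difference of -2.71. Nolc1 differed by -2.93, and its median went from 6.12 to 0.18.

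Fbl, Nop56 and Nop58 encode the core of the box C/D snoRNP, with fibrillarin (Fbl) as its methyltransferase, and Rrp9 encodes a protein of the U3 particle. All 4 were lower. Nop56 reached from 0 to 11.26 in GMP (median 8.45) and from 0 to 9.68 in CD11b+ GMP-P (median 3.70), with means of 8.09 ± 1.97 and 4.17 ± 3.79 and a difference of -3.92. Nop58 differed by -3.62, with medians of 7.57 and 1.93. Fbl differed by -2.78, with medians of 5.59 and 0.54. That was less than Nop56 and Nop58 on this scale but more on the log2 ratio of mean TPM, where Fbl was at -1.76, Nop56 at -1.52 and Nop58 at -1.44. Rrp9 was sparse already in GMP, where it was above 0 in 26 of 46 cells, against 10 of 45, and differed by -1.74.

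Dkc1, Nhp2, Nop10 and Gar1 encode the box H/ACA snoRNP, whose pseudouridine synthase dyskerin (Dkc1) is also part of telomerase. Of these, 3 were among the highest of the nucleolar genes and, in mean log2(TPM + 1), among the most different. On the log2 ratio of mean TPM, Dkc1 was at -1.49, Nop10 at -1.24 and Nhp2 at -1.20. The median of the 36 genes on that scale was -1.33. Dkc1 ranged from 0.40 to 9.71 in GMP (median 8.03) and from 0 to 9.83 in CD11b+ GMP-P (median 0.76), a difference of -4.07 between means of 7.28 ± 2.27 and 3.20 ± 3.54. Its level was 10 TPM or more in 41 of 46 cells of GMP and in 17 of 45 of CD11b+ GMP-P. Nhp2 differed by -3.69, with medians of 8.30 and 4.27, and Nop10 by -3.39, with medians of 9.21 and 6.93, so both kept a higher level in CD11b+ GMP-P than Dkc1 did. Gar1 was low in both, at 1.56 ± 1.88 and 0.58 ± 1.31, and its difference of -0.97 fell short of the size that was called.

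Transcription of the ribosomal DNA was represented by the RNA polymerase I subunits Polr1a (the largest subunit), Polr1b and Polr1c (a subunit shared with RNA polymerase III), by the nucleolar helicase Ddx21, and by Mybbp1a, a nucleolar Myb-binding protein. All 5 were lower by 1 or more, from low levels. Polr1c was above 0 in 27 of 46 cells in GMP and in 12 of 45 in CD11b+ GMP-P, with highest cells of 8.59 and 7.95, and differed by -2.72. Polr1b differed by -1.99 and Polr1a by -1.39. On the log2 ratio of mean TPM, which is less held down by zeros, the subunits had the largest differences of all 36 genes, with Polr1a at -2.93 (17.8 and 1.47 TPM), Polr1c at -2.89 (77.2 and 9.55 TPM) and Polr1b at -2.37 (65.7 and 11.9 TPM). Mybbp1a had medians of 4.43 and 0 and differed by -2.86, and Ddx21 differed by -1.29, with medians of 3.50 and 1.12.

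The 8 genes of small subunit assembly had the smallest median difference of the 6 roles in mean log2(TPM + 1), -1.35, but not in the log2 ratio of mean TPM (-1.16, against -1.13 for large subunit assembly), and 6 of the 8 were lower by 1 or more. Wdr43, a component of the early small subunit particle, stood out from them, with values from 0 to 9.60 in GMP (median 6.40) and from 0 to 8.61 in CD11b+ GMP-P (median 0.24), and a difference of -3.38. Imp4, which joins U3 to the precursor RNA, differed by -2.54 with medians of 6.16 and 0.66. The late factors Tsr1, Bysl and Ltv1, which act on the precursor of the small subunit up to the cytoplasm, differed by -1.46, -1.36 and -1.17, and Imp3, the partner of Imp4, by -1.33. Rrp12, a factor of maturation and export, was low throughout (1.17 ± 1.75 and 0.22 ± 0.92, a difference of -0.95). Nop14, of the early small subunit particle, had the smallest difference of all 36 genes, -0.47 (1.99 ± 2.41 and 1.53 ± 2.72), and on the log2 ratio of mean TPM it was the only one on the higher side, at 0.38.

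Of the 12 genes of large subunit assembly, 11 were lower by 1 or more, with a median of -2.46. Nop16, a nucleolar factor of the large subunit, had the largest difference of all 36 genes. Its values ran from 0 to 9.98 in GMP (median 7.41) and from 0 to 10.35 in CD11b+ GMP-P (median 0.41), with means of 6.55 ± 2.51 and 2.42 ± 3.36 and a difference of -4.14. Gnl3 (nucleostemin, a GTPase) differed by -3.68, Wdr12 by -3.66 and Wdr74 by -3.44, and each had a median over 6 in GMP and under 0.5 in CD11b+ GMP-P, at 6.39 and 0.30, 6.70 and 0.20, and 7.05 and 0. Wdr12 forms a complex with Pes1 and Bop1 that is needed to process the large subunit RNA, and these partners differed less, by -2.43 and -2.06. Ebna1bp2 differed by -2.55, the rRNA methyltransferase Nop2 by -2.48, Rrp1b by -1.70 and the GTPase Gnl2 by -1.62. Nip7, which acts with the 60S precursor, was above 0 in all 91 cells and differed by only -1.49, with medians of 6.27 and 5.12. Rrs1 was found in few cells, 20 of 46 and 11 of 45, and its difference of -0.80 was not called.

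**Figure D2:**
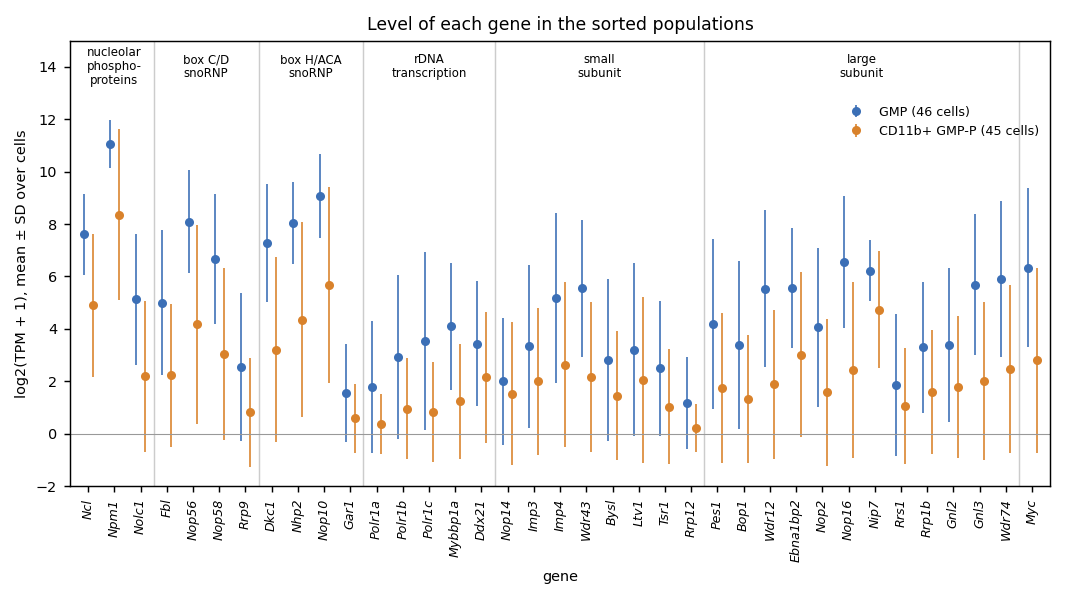
Mean level of each nucleolar gene and Myc on the y axis, in log2(TPM + 1), in blue for GMP (46 cells) and in orange for CD11b+ GMP-P (45 cells), grouped by role along the x axis, with bars for the SD over cells. No level is below 0, and bars that cross 0 show the width of the SD only. Every orange mean lies below its blue one, from 8.37 below 11.05 for Npm1 to 1.53 below 1.99 for Nop14.

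The CD11b+ GMP-P cells were not uniform. Clustering without the nucleolar genes, Myc, ribosomal proteins and cell cycle genes gave 2 clusters. One of 22 cells was led by Ngp, Ltf, Camp, Ifitm6 and Cd177, of which 4 (all but Ifitm6) are in the late granule marker list, and is called late-granule-like here, and the other 23 cells were led by Ctsg, Srgn, Elane, Mpo and Mt1. The mean level of the nucleolar genes was 1.05 ± 0.59 in the 22 cells (0.10 to 2.32, median 1.18) and 3.55 ± 1.17 in the 23 (1.67 to 5.79, median 3.34), and these ranges overlapped only between 1.67 and 2.32. Every gene was lower in the late-granule-like cells, 32 of 36 by 1 or more against 35.4% of the 10030 genes and 57.4% of the commonly detected ones, and the median difference between the clusters was -2.23 against -0.59 and -1.21. The 22 cells also had fewer genes above 0, a median of 3425 against 4754, and their 50 highest genes held 62.2% of TPM against 32.9%. With 1000 in place of 500 variable genes the late granule cluster held 14 cells, all among the 22, with a mean level of 0.77 ± 0.50 against 3.03 ± 1.36 in the other 31.

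A late-granule-like cell had a median of 13 of the 36 genes above 0, and one of the other 23 cells had 24. Npm1 was still above 0 in all 22, at 6.18 ± 3.30 against 10.45 ± 1.18 in the other 23 cells and 11.05 in GMP. Nop10 was at 3.07 ± 3.34 against 8.18 ± 1.99, and Nop56 at 1.57 ± 2.96 against 6.67 ± 2.67, which were the largest gaps between the clusters. Fbl averaged 0.17, Gnl3 0.13 and Nop16 0.14 in the late-granule-like cells, and Rrp9 and Rrp12 were listed at 0 in each of the 22. Nip7 (3.79 ± 2.39) and Ncl (3.61 ± 2.97) were the next highest after Npm1.

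The 23 cells of the other cluster were nearer to GMP. Their primary granule genes averaged 11.93, against 5.77 in the late-granule-like cells. Against GMP their mean level differed by -1.15, and 20 of the 36 genes (55.6%) were lower by 1 or more, against 14.2% of the 10030 genes. The median difference was -1.34 for the nucleolar genes and -0.40 for the commonly detected ones. The genes that stayed furthest below GMP were Polr1c at -2.50 (1.05 ± 2.10 in the 23 cells, 3.55 ± 3.39 in GMP), Wdr12 at -2.09, Dkc1 at -2.05, Nop16 at -1.96 and Mybbp1a at -1.94. By role the medians were -1.64 for large subunit assembly, -1.49 for ribosomal DNA transcription, -1.29 for box H/ACA, -1.25 for the phosphoproteins, -1.20 for box C/D and -0.51 for small subunit assembly. At the other end, Ddx21 (0.02), Imp3 (0.05), Rrs1 (0.19) and Nop14 (0.80) had means in these cells at or above those of GMP, and Npm1 differed by -0.60 and Nip7 by -0.58. For 32 of the 36 genes the means ran in the order GMP, other CD11b+ GMP-P, late-granule-like, an order in which the number of genes detected also ran (medians of 5461, 4754 and 3425).

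**Figure D3:**
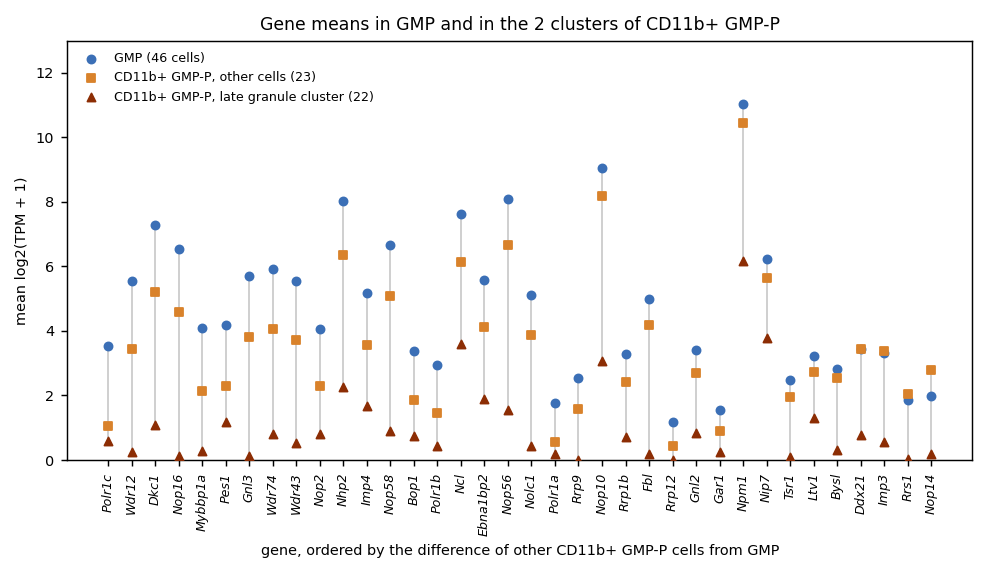
Mean level of each nucleolar gene, in log2(TPM + 1) on the y axis, in 46 GMP cells (circles), 23 other CD11b+ GMP-P cells (squares) and the 22 late-granule-like cells (triangles), with genes ordered from left to right by the difference between squares and circles. The triangles are lowest for every gene, and the squares meet or pass the circles for Ddx21, Imp3, Rrs1 and Nop14 at the right.

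Myc was lower in CD11b+ GMP-P, with a difference between those of Nop58 (-3.62) and Wdr74 (-3.44). It lay between 0 and 10.58 in GMP (median 7.43) and between 0 and 10.03 in CD11b+ GMP-P (median 0.45), with means of 6.34 ± 3.04 and 2.80 ± 3.52 and a difference of -3.54. Its level was 10 TPM or higher in 80.4% of GMP (37 of 46, with an exact binomial 95% interval of 66.1% to 90.6%) and 35.6% of CD11b+ GMP-P (16 of 45, 21.9% to 51.2%), with counting error alone in these intervals. Its mean was 0.66 ± 1.69 in the late-granule-like cells and 4.85 ± 3.62 in the other 23, so it followed the same order over the clusters as most nucleolar genes. Among other genes of the Myc network, its partner Max differed by -0.39 (1.79 ± 2.51 and 1.40 ± 2.33). Mxd1 and Mxd3, which compete with Myc for Max, were higher in CD11b+ GMP-P by 1.69 (0.55 ± 1.64 and 2.24 ± 2.97) and 1.31 (0.13 ± 0.63 and 1.44 ± 2.88), though by 0.74 and 0.99 among cells of that shared range. Mxi1 (0.60), Mxd4 (-0.17), Mnt (-0.16) and Mga (-0.93) were not called. Of 10 network genes past the filter on detection, Myc included, 1 was lower by 1 or more and 2 higher, with a median of -0.28. Of the 10030 genes, 29.9% were lower by that size and 2.45% higher.

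Within a population, cells with more Myc tended to have a higher mean level of the nucleolar genes, but the relation rested largely on groups of cells. In GMP, Pearson's r was 0.428 over 46 cells (Spearman's rho 0.273). Without 3 GMP cells that clustering set apart, all with Myc listed at 0, it was 0.0772. Those 3 cells were led by Cpa3 and Ms4a2, genes of basophils and mast cells, and Gata2, and their mean nucleolar level was 2.22 ± 0.71 against 4.87 ± 0.71 in the other 43. In CD11b+ GMP-P, r was 0.611 over 45 cells (rho 0.513), and 0.307 over the 23 cells outside the late granule cluster. Cells share a library and differ in genes detected, and after a straight line on the number of genes above 0 was removed, r came to 0.467 for GMP and to 0.446 for CD11b+ GMP-P. Both values include the 3 GMP cells or the late granule cluster. Over the 23 cells outside that cluster the adjusted r was 0.411, and without the 3 GMP cells it was not computed. The CD11b+ GMP-P cells with Myc listed at 0 included some high ones, with mean nucleolar levels of 4.06 and 4.57 in the highest, as the scatter of both measures shows. Of the 36 genes, those that went most closely with Myc were Ncl in GMP (r = 0.575) and Nop16 in CD11b+ GMP-P (r = 0.637). The medians over the 36 genes were 0.164 and 0.359, and in GMP Nip7 had the lowest value (-0.208). These values also include the 3 GMP cells or the late granule cluster, where Nop16 averaged 0.14. For single genes, r without those cells was not computed.

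The nucleolar genes tended to vary together from cell to cell in both populations. The correlation of each gene with the mean of the other 35 had a median of 0.284 in GMP (0.0869 to 0.763) and 0.566 in CD11b+ GMP-P (0.125 to 0.807), and it was positive for all 36 genes in both. With the number of genes above 0 removed, the medians were 0.265 and 0.266, nearly the same in both. It was then positive for 33 of the 36 genes in each, with the lowest at -0.119 (Nip7 in GMP) and -0.0891 (Polr1a in CD11b+ GMP-P). The GMP values include the 3 cells set apart by clustering, and no other set of genes was correlated within itself for comparison. Npm1 had the highest value in GMP and Gnl3 in CD11b+ GMP-P. With the number of genes above 0, the mean level itself had an r of 0.575 for GMP cells and 0.856 for CD11b+ GMP-P cells. Without the 3 GMP cells set apart by clustering, the GMP value was 0.208. With the mean of the S phase genes it correlated at 0.436 (0.127 without those 3 cells) and 0.701, and with that of the G2 and M phase genes at 0.138 and 0.196. When the number of genes was removed, the G2 and M phase values were -0.367 and -0.488, so their sign turned, while those of S phase were 0.186 and 0.285.

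**Figure D4:**
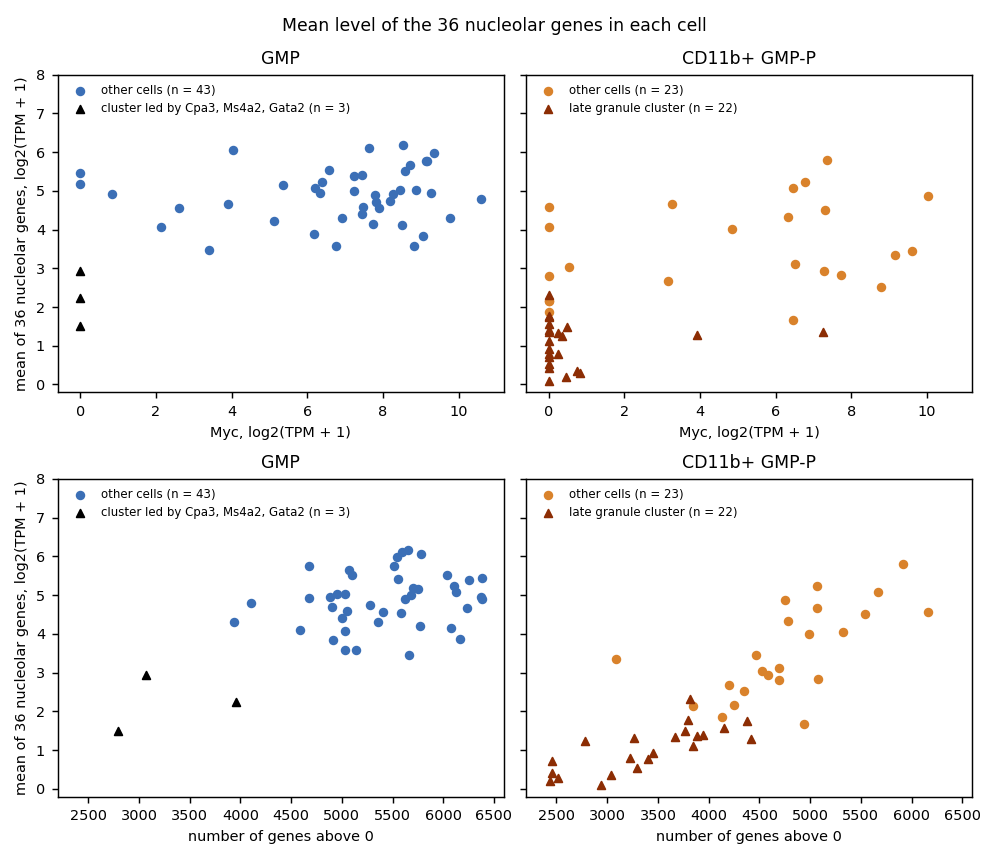
Mean level of the 36 nucleolar genes in each cell (y axis, log2(TPM + 1)) against Myc (upper row, log2(TPM + 1)) and against the number of genes above 0 (lower row), for 46 GMP cells (left) and 45 CD11b+ GMP-P cells (right), 1 point per cell, with triangles for the 3 GMP cells led by Cpa3, Ms4a2 and Gata2 and for the 22 late-granule-like cells. The triangles hold the low ends of both populations, and the relation with genes detected has r = 0.856 on the right and 0.575 on the left, where it is 0.208 without the 3 triangles.

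Outside all lists, the 6 genes whose levels over cells were most like the mean nucleolar level, by the smaller of the correlations within GMP (46 cells) and within CD11b+ GMP-P (45 cells) among 2975 candidates, were Eif3e (0.746 and 0.729), Impdh2 (0.699 and 0.799), Nme1 (0.738 and 0.678), Atp5a1 (0.671 and 0.679), Fkbp1a (0.814 and 0.643) and Sdf2l1 (0.627 and 0.649). All 6 were lower in CD11b+ GMP-P, from Atp5a1 at -2.22 to Impdh2 at -3.63. Of the commonly detected genes, 51.8% were lower by 1 or more. The correlations include the GMP cells set apart by clustering and the late granule cluster. They were not adjusted for the number of genes above 0. With that number the mean nucleolar level had an r of 0.575 in GMP and 0.856 in CD11b+ GMP-P. Whether the 6 genes follow the nucleolar genes beyond shared detection was not tested.

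The wider pathway differed in the same direction, with a smaller median. For comparison, 29.9% of the 10030 genes and 51.8% of the commonly detected ones were lower by 1 or more, with medians of -0.50 and -1.05. Of 127 further ribosome biogenesis genes found in the table, 89 were lower in CD11b+ GMP-P by 1 or more, none was higher by that size, and 38 lay between, with a median of -1.44. The lowest were Exosc7 at -4.11 (6.43 ± 3.01 and 2.31 ± 3.38) and Exosc5 at -3.41, subunits of the RNA exosome that trims precursor rRNA, Ruvbl2 at -4.07, an ATPase that helps to build snoRNPs, and Cirh1a (now Utp4, of the small subunit processome) at -3.42. At the other end were Utp18 at 0.09, Ccdc59 at -0.07, Exosc6 at -0.31 and Ddx51 at -0.33. Of 15 noncoding host genes past the filter on detection, that carry small nucleolar RNAs, 13 were lower and none higher, with a median of -1.94, and Snhg3 (-3.55) and Snhg4 (-3.44) were lowest. The 79 cytoplasmic ribosomal protein genes had 69 lower, none higher and a median of -1.61, from Rpl30 at -3.19 to Fau at -0.71. Among the 23 CD11b+ GMP-P cells outside the late granule cluster the ribosomal protein median against GMP was -0.22, that of the further biogenesis genes -0.72 and that of the 36 nucleolar genes -1.34. The commonly detected genes had a median of -0.40 there, so the ribosomal proteins were not lower than these.

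**Figure D5:**
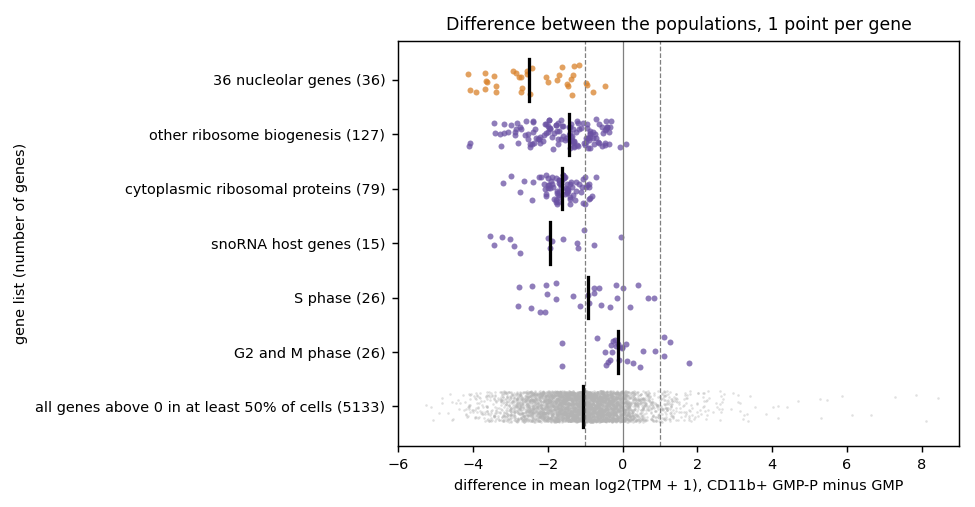
Difference of each gene between the populations on the x axis, as mean log2(TPM + 1) in CD11b+ GMP-P minus GMP, 1 point per gene, for the gene lists on the y axis, with a black bar at each median and dashed lines at -1 and 1. The nucleolar genes have a median of -2.51, the further biogenesis genes -1.44, the ribosomal proteins -1.61 and the commonly detected genes (grey) -1.05.

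The cell cycle lists differed from each other. Of the 10030 genes, 29.9% were lower by 1 or more and 2.45% higher, and of the commonly detected ones 51.8% and 3.7%. Of 26 S phase genes, 12 were lower by 1 or more and none higher. Their median was -0.91, against -1.05 for the commonly detected genes. In the shared range of detection these medians were -0.23 and -0.44. Of 26 G2 and M phase genes, 2 were lower and 4 higher, with a median of -0.11 that was 1.09 in the shared range of detection. The highest difference among them was that of Mki67, a marker of cycling cells, at 2.86 ± 2.65 in GMP and 4.62 ± 2.88 in CD11b+ GMP-P. Ube2c followed at 1.26, and the 2 lower genes were Ccnb1 at -1.63 and Cks2 at -1.61.

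The labels fitted the markers in part. Itgam was at 3.68 ± 2.87 in CD11b+ GMP-P against 0.54 ± 1.37 in GMP, and Fcgr3, one of the CD16/32 genes, was above 0 in 100% of GMP and 93.3% of CD11b+ GMP-P cells. The level of Fcgr3 differed by -2.29 (9.18 ± 1.70 and 6.89 ± 3.30), and that of Fcgr2b, also of CD16/32, by -1.78. Kit, which encodes CD117, was above 0 in 80.4% and 46.7% of cells, and Cd34 in 91.3% and 71.1%. Ly6a, which encodes Sca-1, was above 0 in 93.5% and 97.8% of cells although the sort was for cells without that protein. No gene of 10 erythroid and megakaryocyte markers and 1 of 10 lymphoid markers (Cd79b) passed the filter on detection, and the summed erythroid and megakaryocyte TPM had a median of 0 in both populations (highest cells 702 and 562). Of 6 monocyte markers, 4 were lower in CD11b+ GMP-P by 1 or more and none higher, with a median of -2.61. F13a1 (-3.83) and Ms4a6c (-3.12) were lowest, and Csf1r (-0.82) and Klf4 (-0.46) were not called. The summed TPM of the 6 markers had a median of 407 in GMP (0 to 5071) and 3.27 in CD11b+ GMP-P (0 to 2081). The 5 primary granule genes were all lower by 1 or more, with a median of -3.06, though of 0.26 in the 23 cells outside the late granule cluster. Beside these lists, 29.9% of the 10030 genes and 51.8% of the commonly detected ones were lower by that size. The part of these lists in the lower nucleolar levels was not tested. Basophil, mast cell and eosinophil markers had 6 of 8 past the filter on detection, with summed TPM of 0.18 to 24394 in GMP and 0 to 131255 in CD11b+ GMP-P. No cell number was shared by the populations, and the highest correlation between 2 cells was 0.736. The cell names carry an identifier that differs between the populations and that the labels do not explain, so anything behind it cannot be told apart from the population.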

How the data were processed

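Per the labels' protocols, cells were captured on a Fluidigm C1, cDNA was made with the SMARTer kit and libraries with Nextera XT, sequenced with 150 bp paired-end reads, 96 cells to a library. The authors deposited log2 values. On the linear scale, minus 1, they sum to between 999999 and 1000076 per cell, as TPM does. RSEM and mm9 are named in the submitters' processing notes, and aligner and annotation were not given in the sources used here. These kits mark neither molecules nor strand. In GENCODE M21, used for overlaps between genes by name, exons of 14 of the 36 genes overlap a gene on the other strand (Gnl3 and Pbrm1, Bysl and Ccnd3, Nop56 and Idh3b among them), whose reads cannot be separated.

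The members and lists were chosen with earlier results of these data known. Named genes were the 36 and Myc, the genes at both ends of the other lists, the 6 most alike genes and the leading genes of clusters. The sort, Myc network and marker genes are from those lists. Clusters used 500 variable genes above 0 in at least 20% of cells, 10 principal components, Ward linkage and the highest silhouette over 2 to 5 clusters. No cell was left out and no doublet caller was run. The calculation of differences was tested on simulated data. The planned protein features were not run. Alternatives were pseudocounts of 0.1 and 10, mean TPM, 2 scalings, filters, floors, subsets of cells (such as without the top 5% by genes above 0), Spearman's rho and promoter windows. Python 3.11.15, numpy 2.4.6, scipy 1.17.1 and scikit-learn 1.9.0 were used.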

Additional observations from a re-analysis of the deposited data

How the results depend on the processing

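All 32 called genes kept the call with pseudocount 0.1, without the 50 highest genes, without the top 5% of cells by genes above 0 and without the 3 GMP cells, while 25 did with mean TPM, 29 with scaling by median of ratios, 27 in the shared range of genes detected, 22 with pseudocount 10, and 20 relative to each cell's commonly detected genes. The share of the 10030 genes lower by 1 or more moved too. It was 29.9% with the main settings, 27.5% without the 50 highest genes and 20.3% with scaling by median of ratios. In the shared range it was 16.7%, and without the late granule cluster 14.2%. It was not computed for the other alternatives, so their counts of nucleolar genes have no share over all genes beside them. Without that cluster 20 nucleolar genes were lower by 1 or more, and Ddx21 (0.0232), Imp3 (0.0497), Rrs1 (0.19) and Nop14 (0.80) turned sign. The median difference ranged from -3.27 to -1.28 over the alternatives, and from -1.64 to -0.78 relative to commonly detected genes. The correlation with Myc in GMP was 0.273 by rank and 0.0772 without the 3 cells. In CD11b+ GMP-P it was 0.513 by rank, 0.424 in the shared range, 0.307 without the late granule cluster and 0.446 given the genes above 0. That with G2 and M phase genes turned sign in GMP in the shared range (-0.0161), without the 3 cells (-0.113) and given the genes above 0 (-0.367), and in CD11b+ GMP-P in the shared range (-0.294), without the late granule cluster (-0.0652) and given the genes above 0 (-0.488). Without the 3 cells, that with S phase genes in GMP was 0.127, with genes above 0 it was 0.208 and with ribosomal proteins 0.116. That with ribosomal proteins in GMP was -0.0104 in the shared range. At 10 TPM a CD11b+ GMP-P cell held a median of 9 nucleolar genes. With 1000 variable genes the late granule cluster held 14 cells, and 2 promoters held CACGTG before the start. Leaving out that smaller cluster gave a difference in mean level of -1.67. The alternatives without the 3 GMP cells or this smaller cluster, given or relative to the genes detected, and with the 50 bases after the start were chosen after seeing the data. The cause of these changes was not tested. No paired analysis was possible because the populations share no cell number and no animal is named. Depth is unknown, so a listed 0 can be a missed transcript.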
